A study of Mus musculus with 6 samples.

Results

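Type I interferon-stimulated genes are the genes that cells switch on when alpha and beta interferons bind their receptor. In this study 39 of them were followed in mouse spleen after total body irradiation. Members were the genes whose symbol, or an alias of it, was the gene name of a non-control probe on the array. All 39 had a probe, 56 probes in all, and all 39 passed the filter on dim signals, among 26638 genes tested. RNA came from spleens of B10.BALB-16.C2A mice in both groups, and the title of the series calls them congenic. The unirradiated group (0 cGy) was resting mice, and the irradiated group had received 900 cGy of X-rays to the whole body and was sampled after 24 h. Each group had 3 Agilent 1-colour arrays, each hybridised with RNA pooled from 3 mice, so p-values measure the spread between pools and not between mice. Values are log2 signals relative to the array's 75th percentile, a change is the irradiated mean minus the unirradiated mean on that scale, and n = 3 arrays per group throughout.

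Type I interferons bind a receptor made of IFNAR1 and IFNAR2, whose kinases JAK1 and TYK2 activate transcription factors, STAT2 among them. STAT2 and IRF9 are parts of the complex ISGF3, which binds interferon-stimulated response elements in promoters. The induced proteins block steps of virus replication, sense foreign nucleic acid or tune the signal itself. Macrophages, plasmacytoid dendritic cells and lymphocytes of the spleen all respond to interferon, and a basal level of these genes is present in animals without infection.

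After irradiation 33 of the 39 genes were higher, 2 were lower and 4 did not pass the test (limma, Benjamini-Hochberg adjusted p under 0.05 over all genes). Of all genes tested, 28.3% were called higher and 31.0% lower. Of the 33 higher genes, 26 had at least doubled on the fold scale, a call that 14.2% of all genes received. The largest change was that of Ifi44 (11.1-fold), and the median over the 39 genes was 1.66, against -0.056 over all genes tested. The 2 genes that fell were Rsad2 and Isg20. The 4 that did not pass were Oas3, Ifi203, Sp100 and Samd9l. In 35 genes every irradiated array lay above every unirradiated array, in 2 every irradiated array lay below, and in Sp100 and Samd9l the groups overlapped. The same separation was found in 31.7% of all genes upward and in 35.7% downward. Oas1g and Ddx60 passed the filter on dim signals through the irradiated arrays alone, so they had to differ, and without them 31 genes were higher. Both are also counted among the 26 genes that doubled and the 35 with separate groups. With normexp background correction Oas1g changed by 1.83-fold and Ddx60 by 1.47-fold, so their doubling depends on the processing. With both set at the lower bound of their fold the median of the 39 was 1.64. Among the 37 genes well above background on all 6 arrays, tested over genes filtered the same way, 32 were higher and 2 lower. Of the 31 genes higher without Oas1g and Ddx60, 26 kept their call under each of 18 alternative settings. The exceptions were Isg15, Cmpk2, Irf9, Epsti1 and Lgals9. Oas1g and Ddx60 are left out of this count, since the filter kept them for their irradiated signal.

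**Figure D1:**
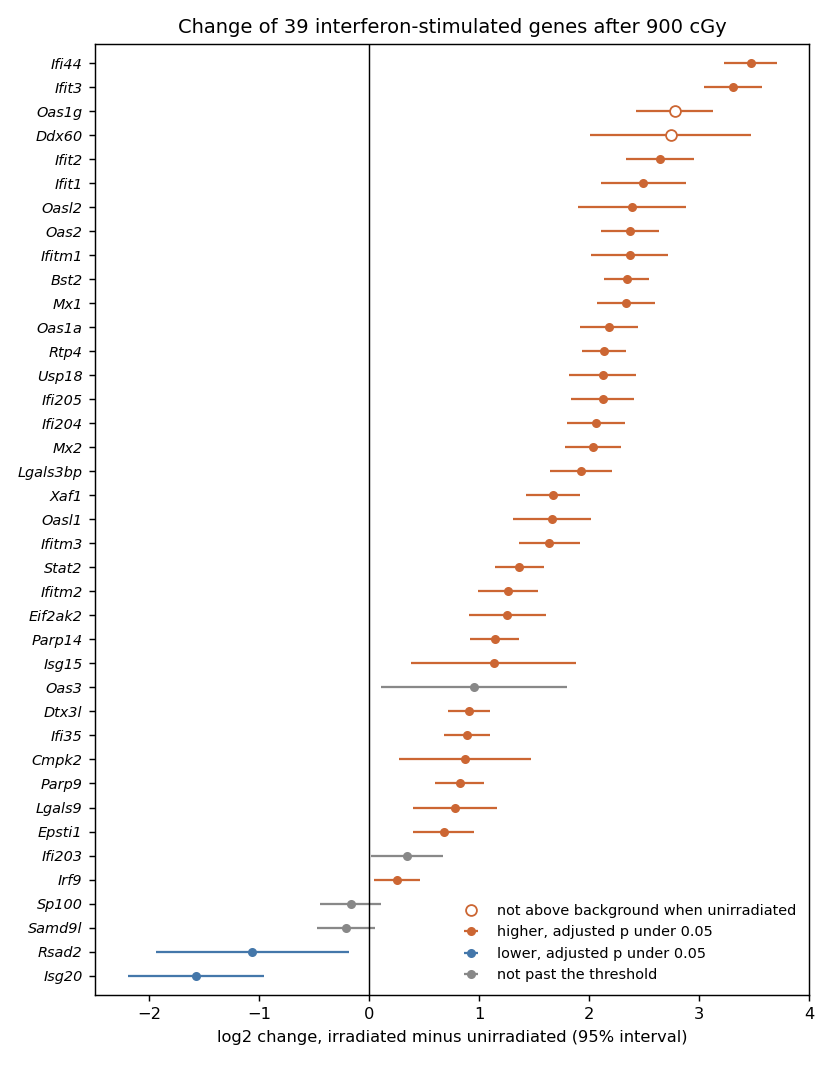
Log2 change (irradiated minus unirradiated) of each of the 39 interferon-stimulated genes, as a point with its 95% interval, coloured by the call. The order runs from Ifi44 at 3.47 to Isg20 at -1.58, and Rsad2, Isg20, Isg15, Oas3, Cmpk2 and Ddx60 have wide intervals. Open circles mark Oas1g and Ddx60, which were not well above background on unirradiated arrays, at their measured change.

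Markers of several cell types moved with the irradiation on the same arrays. Their counts are to be set beside the 28.3% of all genes tested that were higher and the 31.0% that were lower. All 14 macrophage markers were higher, and their summed signal went from 326 to 344 times the 75th percentile on unirradiated arrays to 1175 to 1233 times on irradiated arrays. All 9 B cell markers were lower, from a sum of 290 to 376 to one of 50.2 to 55.8, and so were all 9 T cell markers, from 63.9 to 92.9 to 22.1 to 23.5. All 7 erythroid precursor markers were lower, with sums of 135 to 329 against 8.06 to 13.1. Of 9 markers of exocrine pancreas, an organ that lies beside the spleen, 8 were higher, with sums of 0.646 to 168 against 1233 to 1515. All 5 adipocyte markers (sums of 2.24 to 3.35 against 35.4 to 40.1), all 5 markers of fibroblastic stroma (60.3 to 69.5 against 168 to 174) and 4 of 5 endothelial markers (9.25 to 10.9 against 24.5 to 25.3) were higher. Other lists were mixed. Of 7 neutrophil markers, 1 was higher and 2 were lower. Of 7 NK cell markers, 2 were higher and 3 lower, and of 7 conventional dendritic cell markers, 1 was higher and 4 were lower. Of 7 plasmacytoid dendritic cell markers, 4 were lower and 1 was higher, and the summed signal was 191 to 208 against 139 to 156. The higher one was Klk1, which read -2.80, 0.15 and -1.03 against 4.42, 4.89 and 4.15 and adds to the irradiated sums. On unirradiated replicates 1 to 3 the exocrine pancreas sums were 0.646, 168 and 30.0, and a link to Klk1 was not tested. The part of these cell types in the changes of the interferon-stimulated genes was not tested. In whole-spleen RNA, fewer cells of a type and less RNA per cell cannot be told apart. Scaling by the spike-in RNA in place of the 75th percentile moved the median change of all genes to -0.34, and the calls over all genes from 7534 higher and 8255 lower to 4797 higher and 10873 lower. Under that scaling 29 of the 39 genes were higher and 3 lower.

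Both members that encode parts of ISGF3 were called higher, and by different amounts. Stat2, which carries the activation domain of the complex, read 2.99, 3.05 and 3.18 on unirradiated replicates 1 to 3 and 4.36, 4.42 and 4.53 on the irradiated ones. The groups did not overlap, and the change was 1.36 (SE 0.092, adjusted p = 9.2e-05, limma). Irf9, the DNA-binding subunit, read 3.82, 3.83 and 3.66 on unirradiated arrays against 4.07, 3.96 and 4.04. All irradiated values were above the unirradiated ones, but the change of 0.25 (SE 0.087, adjusted p = 0.0453) was small, and the call was lost under 12 further settings that kept its direction. With spike-in scaling the change of Irf9 turned to -0.035 (adjusted p = 0.886).

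All 3 genes of the IFIT family among the 39, whose proteins bind viral RNA, rose. Outside the 39, Ifit1bl1 did not pass, with a change of 0.26 and overlapping groups. Ifit3 read 2.32, 2.06 and 2.25 on unirradiated arrays and 5.49, 5.42 and 5.64 on irradiated arrays, a 9.90-fold rise (log2 change 3.31, SE 0.109, adjusted p = 5.1e-05). Ifit3 has a near-identical copy, Ifit3b, and the signals of the pair were not separated here. Ifit2 went from -0.54, -0.81 and -0.70 to 1.83, 1.87 and 2.18, a change of 2.64. Ifit1 went from 0.21, 0.00 and -0.31 to 2.33, 2.39 and 2.66, a change of 2.49. In each of the 3 genes the lowest irradiated array was above the highest unirradiated array by more than the whole range within either group. Both Mx GTPases, which trap viral nucleoproteins, also rose, Mx1 by 2.33 and Mx2 by 2.03 on the log2 scale. RefSeq lists Mx1 of the reference strain as a transcribed pseudogene.

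The 39 include 6 genes of the OAS family. Of the 5 of them well above background in both groups, 4 rose and Oas3 did not pass. The probe of Oas1g is described apart. Outside the 39, Oas1c was lower (-0.81, separate groups), Oas1b did not pass (0.085) and Oas1f was higher (2.02). They were named after their values were seen. OAS enzymes make 2'-5'-linked oligoadenylates in response to double-stranded RNA and so activate RNase L, and Oasl1 and Oasl2 encode OAS-like proteins of the same family. Oasl2 read 2.79, 2.34 and 2.04 on unirradiated arrays and 4.67, 4.70 and 4.97 on irradiated arrays, a change of 2.39 (SE 0.202, adjusted p = 0.00017). Oas2 read 2.87, 2.68 and 2.74 against 5.08, 5.02 and 5.31, a change of 2.37 (SE 0.109). The groups of both genes were separate. Oas1a rose by 2.18 and Oasl1 by 1.66. The brightest Oas1a probe is annotated to transcripts of Oas1a and Oas1g, and a second probe annotated to Oas1a alone rose by 2.09. The reported probe of Oas1g is likewise annotated to both genes. It read -6.82, -6.89 and -7.21 on the unirradiated arrays, where it was not well above background, and -4.26, -4.34 and -4.00 on the irradiated ones, at least 4.79-fold higher. No test is given as support, since the filter kept this probe for its irradiated signal. Such a bound sets the irradiated mean against the mean of, per unirradiated array, the lowest signal counted as well above background, and it holds for this processing: with normexp background correction the change of the Oas1g probe was 0.87 (1.83-fold), below the bound. A probe annotated to Oas1g alone was well above background on 1 array of each group, so the rise is not assigned to 1 of the 2 genes here.

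Oas3 did not pass. It read 1.09, 0.55 and -0.34 on unirradiated arrays and 1.32, 1.24 and 1.60 on irradiated arrays, so the groups did not overlap. The unirradiated values spanned more than the distance between the group means. The change was 0.95 (SE 0.350, 95% interval 0.11 to 1.80, adjusted p = 0.0544). Without unirradiated replicate 3 the change was 0.56 (adjusted p = 0.0555), and the adjusted p was below 0.05 under 5 of the 18 alternative settings.

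All 4 genes for membrane proteins that hinder virus entry or release rose. Bst2, or tetherin, which holds budding virions at the cell surface, read 4.20, 4.12 and 4.22 on unirradiated arrays and 6.49, 6.46 and 6.62 on irradiated arrays. Arrays of a group lay close together, and the change was 2.34 (SE 0.084, adjusted p = 5.1e-05). Ifitm1 read 2.51, 2.28 and 2.78 against 4.88, 4.79 and 5.01, a change of 2.37 (SE 0.144). Ifitm3, which restricts fusion of virions in endosomes, read 5.01, 4.67 and 4.69 against 6.44, 6.38 and 6.47, a change of 1.64 (SE 0.114). Neither gene's groups overlapped. Ifitm2 rose by 1.26.

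The ubiquitin-like modifier ISG15 and the protease USP18, which removes it from proteins and damps receptor signalling, were both called higher. Isg15 read 6.17, 5.89 and 4.92 on unirradiated arrays and 6.75, 6.74 and 6.89 on irradiated arrays. The irradiated arrays lay close together above all unirradiated arrays, of which replicate 3 was the lowest. The change was 1.13 (SE 0.311, 95% interval 0.38 to 1.88, adjusted p = 0.0195). It was 0.76 (adjusted p = 0.0029) without unirradiated replicate 3, and the call was lost without irradiated replicate 3 (1.08, adjusted p = 0.0584) with slide row as a block (1.09, adjusted p = 0.115) and within slide row 1 (1.09, adjusted p = 0.164). All 6 arrays lay on 1 slide, whose row 1 held the 3 unirradiated arrays and irradiated replicate 1, so the fit within that row assumes that the lone irradiated array varies like the others. Usp18 rose by 2.12, with no overlap between its groups.

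All 3 genes of the PARP9, PARP14 and DTX3L group, ADP-ribosylation and ubiquitin ligase factors of the interferon response, rose by 0.82 to 1.14 on the log2 scale. A second, dimmer probe of Parp9 changed by 0.36. Among the 4 HIN-200 and nuclear body genes, 2 rose. Ifi204, of the HIN-200 family of DNA-binding proteins, rose by 2.06, and a second, dimmer probe of it by 3.16. Ifi205 rose by 2.12, but its probe carries the name Mnda on the array and matches transcripts of Ifi205 and Ifi211. Ifi203 read 3.78, 4.0 and 4.26 against 4.32, 4.29 and 4.46. The groups were separate, with a change of 0.34 (SE 0.136, adjusted p = 0.0693). The mean over its 4 probes gave a change of 0.58 (adjusted p = 0.0053), and leaving out unirradiated replicate 3 gave 0.47 (adjusted p = 0.0125). Sp100, a component of PML nuclear bodies, read 0.73, 0.35 and 0.50 against 0.29, 0.36 and 0.43. These values overlapped, and the change was -0.17 (95% interval -0.45 to 0.11, adjusted p = 0.252).

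All 7 remaining genes with no shared family rose. Ifi44, a cytoplasmic protein of the interferon response, read 0.19, -0.04 and 0.10 on unirradiated arrays and 3.56, 3.45 and 3.64 on irradiated arrays. The distance between the groups was many times the spread within either, with a change of 3.47 (SE 0.099, adjusted p = 4.5e-05). Its probe lies at chr3:151394035-151394094 (mm9, the build of the probe annotation). Lgals3bp, a secreted galectin-3 ligand, read 4.75, 4.46 and 4.41 against 6.48, 6.37 and 6.55, a change of 1.92 with separate groups. Rtp4 rose by 2.14, Xaf1 by 1.67, Ifi35 by 0.89, Lgals9 by 0.78 and Epsti1 by 0.68. A second, dimmer probe of Xaf1 changed by 0.53. The calls of Lgals9 and Epsti1 were lost with spike-in scaling (0.49, adjusted p = 0.0711, and 0.39, adjusted p = 0.107) and on the arrays of slide row 1 alone (0.83, adjusted p = 0.079, and 0.76, adjusted p = 0.0504).

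**Figure D2:**
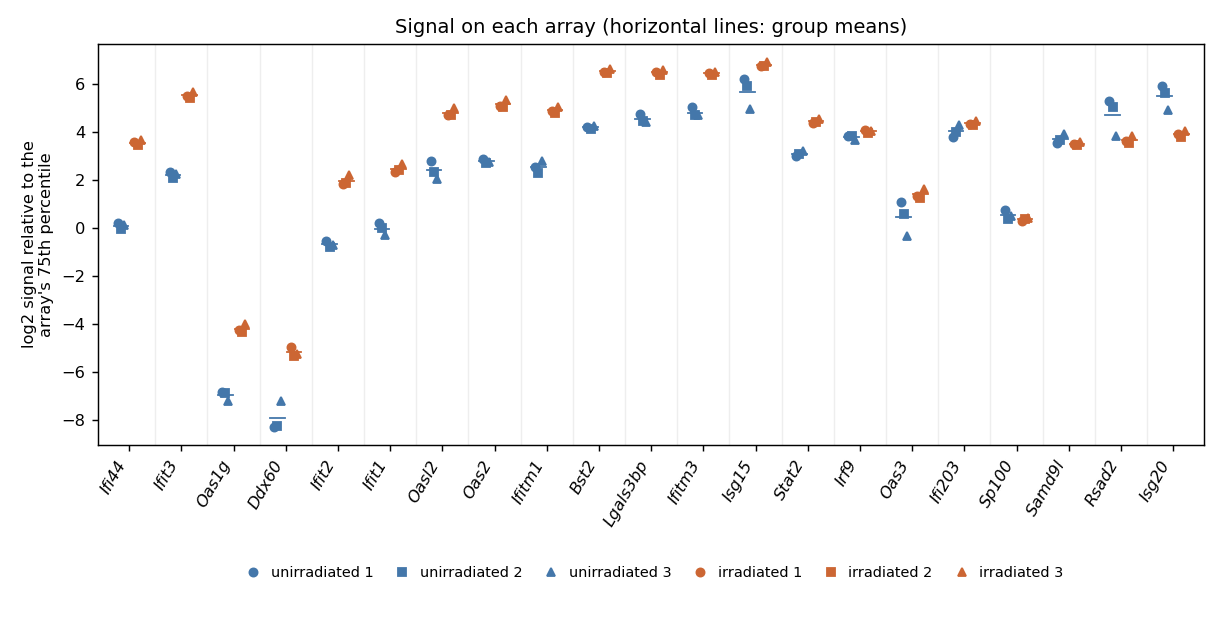
Log2 signal relative to the array's 75th percentile on each of the 6 arrays (blue unirradiated, orange irradiated, symbol by replicate number) with group means as horizontal lines, for the 21 genes that the rule for named genes took. Ifi44 and Ifit3 separate by more than 3 log2 units, and unirradiated replicate 3 lies apart from replicates 1 and 2 in Isg15, Oas3, Rsad2 and Isg20.

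The 6 remaining antiviral effectors were the group in which directions differed. Of the 5 well above background in both groups, 2 rose, 2 fell and 1 did not pass. Ddx60, a helicase that assists RNA sensing, read -8.28, -8.27 and -7.21 on unirradiated arrays, not well above background, and -4.97, -5.32 and -5.24 on irradiated arrays, at least 2.43-fold higher. With normexp background correction its change was 0.56 (1.47-fold), below that bound. Eif2ak2, which encodes the kinase PKR that stops translation, rose by 1.26 (SE 0.143). Samd9l, a restriction factor of poxviruses, read 3.55, 3.67 and 3.89 against 3.50, 3.43 and 3.55. Its groups overlapped, and the change was -0.21 (95% interval -0.48 to 0.055, adjusted p = 0.145). With spike-in scaling it was -0.50 (adjusted p = 0.0394).

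Rsad2 encodes viperin, an enzyme that makes a chain-terminating nucleotide from CTP, and Cmpk2 encodes a nucleotide kinase that supplies CTP to it. The RefSeq table places the pair side by side on chromosome 12 on opposite strands, with start sites 12763 bases apart (build GRCm38.p6). Rsad2 read 5.26, 5.04 and 3.84 on unirradiated arrays and 3.59, 3.54 and 3.81 on irradiated arrays. Every irradiated array was below every unirradiated array, but unirradiated replicate 3 lay next to the irradiated arrays and far below replicates 1 and 2. Its 1 probe lies at chr12:27127859-27127918 (mm9). The change was -1.06 (SE 0.364, 95% interval -1.94 to -0.19, adjusted p = 0.0428). Without unirradiated replicate 3 it was -1.50 (adjusted p = 0.00034). Leaving out any other single array ended the call, with changes between -1.14 and -0.79 and adjusted p between 0.076 and 0.128. It was also lost with no filter on dim probes (adjusted p = 0.0681), with slide row as a block (-1.12, adjusted p = 0.154) and within slide row 1 (-1.12, adjusted p = 0.205).

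Cmpk2 was called in the other direction. It is given in full as the neighbour of Rsad2, after its values were seen. It read 1.96, 1.58 and 0.95 on unirradiated arrays and 2.38, 2.26 and 2.46 on irradiated arrays. The groups did not overlap, and unirradiated replicate 3 was again the lowest. The change was 0.87 (SE 0.247, adjusted p = 0.0222), and a second probe of the gene changed by 0.99. It was 0.60 (adjusted p = 0.0139) without unirradiated replicate 3. The call was lost with spike-in scaling (0.58, adjusted p = 0.0535), with slide row as a block (0.89, adjusted p = 0.11), within slide row 1 (0.89, adjusted p = 0.159), without unirradiated replicate 2 (0.91, adjusted p = 0.0528) and without irradiated replicate 1 (0.86, adjusted p = 0.0592) or 3 (0.82, adjusted p = 0.0668).

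Isg20, an exonuclease of RNA, showed the largest fall of the 39 genes. It read 5.92, 5.62 and 4.89 on unirradiated arrays and 3.88, 3.80 and 4.02 on irradiated arrays. The groups did not overlap, and unirradiated replicate 3 was the nearest to the irradiated arrays. The change was -1.58 (SE 0.257, 95% interval -2.20 to -0.96, adjusted p = 0.0023), and a second probe changed by -1.62. The reported probe lies at chr7:86065136-86065195 (mm9). Without unirradiated replicate 3 it was -1.87 (adjusted p = 0.0002).

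In several genes with wide intervals unirradiated replicate 3 stood apart from replicates 1 and 2. In Ddx60, dim on all 3 unirradiated arrays, it stood above them. It was below the mean of replicates 1 and 2 by 1.31 for Rsad2, 1.17 for Oas3, 1.11 for Isg15, 0.88 for Isg20, 0.82 for Cmpk2 and 0.52 for Oasl2, and these 6 were the members with a deviation of more than 0.5 downward. Against the array of unirradiated replicate 3 alone the irradiated mean differed by -0.19 in Rsad2 and -0.99 in Isg20, and by 1.87 in Isg15, 1.73 in Oas3 and 1.41 in Cmpk2. The mean deviation of replicate 3 was -0.14 over the 39 genes and -0.042 over all genes. On the same array the 7 erythroid precursor markers deviated by -1.41 on average and the 7 neutrophil markers by -1.12. Exocrine pancreas markers deviated upward by 1.65, with a sum on replicate 3 between those on replicates 1 and 2. T cell, NK cell and B cell markers deviated upward by 0.43, 0.39 and 0.38. The remaining marker lists lay between -0.22 (adipocyte) and 0.30 (fibroblastic stroma). The summed erythroid signal was 329, 285 and 135 times the 75th percentile on unirradiated replicates 1 to 3, against 13.1, 12.5 and 8.06 on the irradiated arrays. The summed neutrophil signal was 798, 716 and 390 against 504, 447 and 463. Macrophage markers did not follow this order, with a deviation of 0.10. The part of these cell types in the spread of the 6 genes was not tested. Leaving out unirradiated replicate 3 gave 33 members higher and 2 lower. The unirradiated arrays varied more than the irradiated ones in 31 of the 39 genes, with a median SD of 0.177 against 0.0912, close to the 0.172 and 0.0936 over all genes.

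**Figure D3:**
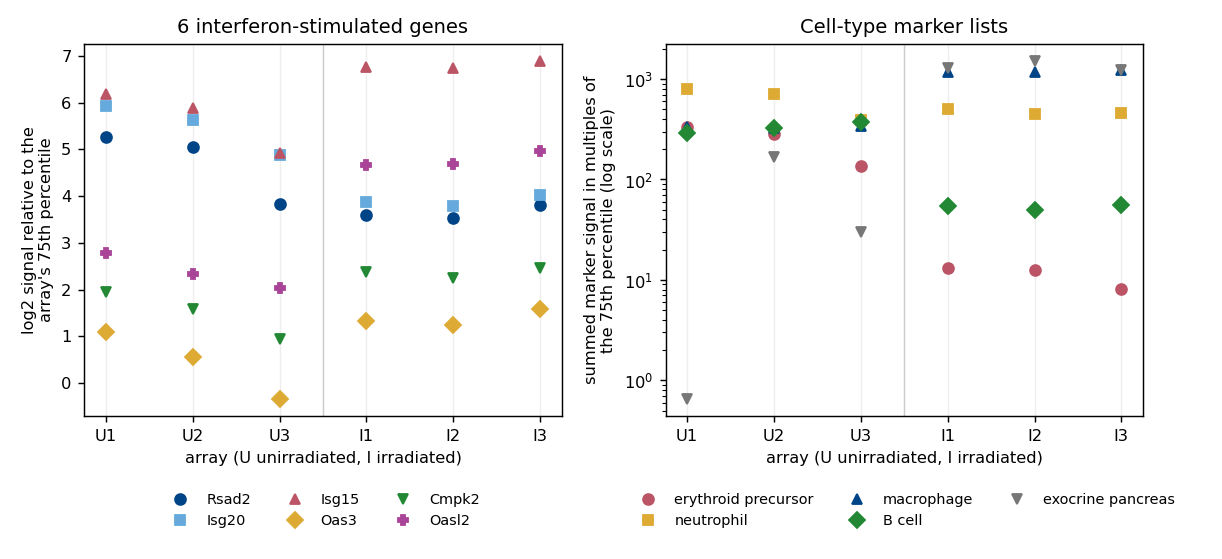
Left, log2 signal relative to the 75th percentile on each array for the 6 interferon-stimulated genes in which unirradiated replicate 3 (U3) was more than 0.5 below replicates 1 and 2; right, summed signal of 5 marker lists in multiples of the 75th percentile on a log axis. Rsad2, Isg20 and the erythroid sum are lower on U3 than on U1 and U2 and lower still on irradiated arrays, while Isg15, Oas3, Cmpk2 and Oasl2 are lowest on U3.

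Promoter sequence is shown for members that changed by different amounts, since ISGF3 acts through a short response element. Windows from 250 bases before to 50 after the start were taken from RefSeq (build GRCm38.p6), which gave 31 of the 39 genes. Those without an entry were Mx1, Mx2, Oas2, Usp18, Parp9, Parp14, Rtp4 and Ifi204. The core of the response element was searched as TTTCNNTTTC, or GAAANNGAAA on the other strand, and overlapping matches were all counted. It was found in 16 of the 31 genes (51.6%), and in 3.99% of the 27025 genes of the table with a window of the same length. Among members in the table, it was found in 13 of 25 that were called higher and in 3 of 6 that were not, namely Oas3, Ifi203 and Rsad2. The palindromic core of the gamma-activated site, TTCNNNGAA, was in 7 of the 31 (22.6%) and in 9.55% of the table; the cores of the 2 elements can share a GAA or TTC, and such overlaps were not separated. In 14 genes at least 1 match lay upstream of the start. The stretches below are from genes that rose strongly (Ifit3, Ifit1, Bst2), a paralog pair (Oas1a, Oas1g), genes with a wide spread between unirradiated arrays (Isg15, Oas3) and Rsad2, 1 of the 2 genes that fell, each 5' to 3' on the gene's strand, with matches to the core in capitals.
Ifit3 (chr19:34583358-34583431, plus strand): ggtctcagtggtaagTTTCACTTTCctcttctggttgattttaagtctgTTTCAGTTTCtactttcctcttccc
Ifit1 (chr19:34640770-34640828, plus strand): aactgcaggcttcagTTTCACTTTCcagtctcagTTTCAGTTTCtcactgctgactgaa
Bst2 (chr8:71537572-71537617, minus strand): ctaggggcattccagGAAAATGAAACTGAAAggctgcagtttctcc
Oas1a (chr5:120907526-120907560, minus strand): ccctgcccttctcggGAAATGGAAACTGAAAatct
Oas1g (chr5:120887614-120887646, minus strand): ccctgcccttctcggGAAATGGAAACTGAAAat
Isg15 (chr4:156200860-156200911, minus strand): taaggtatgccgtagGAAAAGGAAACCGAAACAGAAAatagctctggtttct
Oas3 (chr5:120777710-120777749, minus strand): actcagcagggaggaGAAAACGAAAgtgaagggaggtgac
Rsad2 (chr12:26456548-26456587, minus strand): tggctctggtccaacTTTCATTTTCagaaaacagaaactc
Ifit3 and Ifit1 each held 2 separate cores in the same orientation. Bst2 held 2 overlapping cores and Isg15 held 3. Oas1a and Oas1g held the same overlapping pair directly upstream of the start. Rsad2 held 1 core, from base -120 relative to its start. The windows of Cmpk2, Ifi44, Isg20 and Irf9 held no match, and these genes changed by 0.87, 3.47, -1.58 and 0.25. A match is a description of letters and not a binding site or a cause, and no match says only that these letters are not in the window.

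Genes upstream of the response were given as lists beside the 39. Their counts are to be read against the 28.3% of all genes tested that were higher and the 31.0% that were lower. Of 14 interferon ligands, 12 had a probe and 9 were tested. Ifng, the type II interferon of T and NK cells, read -1.30, -1.37 and -1.31 against -0.45, -0.59 and -0.64, a change of 0.77 with separate groups. Ifnl3 was lower (-0.85), and the other 7, among them the 5 alpha interferons tested by number (Ifna1, Ifna2, Ifna5, Ifna12 and Ifna13), did not pass. Genes of the alpha interferons are close copies of each other, so their probes may share signal. The Ifnb1 probe, for beta interferon, was well above background on 1 of 6 arrays and was not tested.

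Of 13 receptor and signalling genes, 5 were higher and 3 lower, against 28.3% and 31.0% of all genes tested. Ifnar2 read 2.95, 2.91 and 2.93 against 3.87, 3.85 and 3.86, a change of 0.94, and Ifnar1 read 2.03, 2.09 and 2.36 against 1.68, 1.60 and 1.55, a change of -0.55. The 2 chains of the receptor therefore moved in opposite directions, each with separate groups. Such separation was found in 31.7% of all genes upward and in 35.7% downward. The feedback inhibitors Socs1 and Socs3 rose by 1.20 and 1.08.

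Of 8 interferon regulatory factors tested other than Irf9, 2 were higher and 4 lower, against 28.3% and 31.0% of all genes tested. Irf7, which amplifies production of alpha interferons and is itself interferon-induced, read 1.32, 0.96 and 0.63 against 2.97, 3.04 and 3.34, a change of 2.14. Irf4, a factor of lymphocytes, fell by 1.07. Of 12 nucleic acid sensors and their adaptors, 8 were higher and 2 lower. The largest changes were those of Zbp1 (2.01), Dhx58 (1.77) and Ifih1 (1.73), sensors that are themselves interferon-induced.

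Of 30 other interferon-stimulated genes tested, 19 were higher and 4 lower, led by Ifit3b (3.41), the chemokine gene Cxcl10 (2.18) and Oas1f (2.02). The signal of Ifit3b was not separated from that of Ifit3, so it is not a result apart from that of Ifit3. Ube2l6, which encodes the conjugating enzyme for ISG15, was chosen after its values were seen. It read 5.42, 5.09 and 4.10 against 3.80, 3.72 and 3.71, a change of -1.13 (adjusted p = 0.023), with unirradiated replicate 3 again nearest to the irradiated arrays. All 16 genes of the GBP and IRG GTPases, which attack vacuoles of intracellular microbes and respond to gamma as well as type I interferons, were higher, with a median change of 1.43. The largest were Iigp1 (2.13), Gbp2 (2.07) and Gbp6 (2.03). These lists were counted on the same 6 arrays and are not independent of each other.

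**Figure D4:**
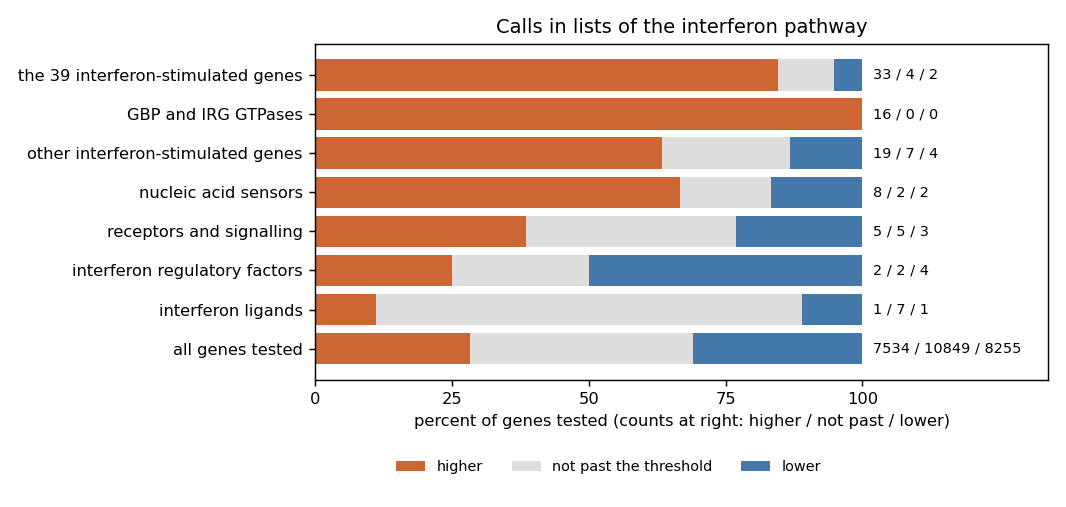
Percent of genes tested in each list that were higher (orange), not past the threshold (grey) or lower (blue) after irradiation, with counts at the right. All 16 GBP and IRG genes and 33 of the 39 interferon-stimulated genes are higher, against 1 of 9 interferon ligands and 28.3% of all genes tested.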

How the data were processed

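Per the file headers, the deposited intensity values are output of Agilent Feature Extraction (version 10.5.1.1 in the submitters' processing notes). They hold a processed intensity of each spot, background-subtracted and not normalized between arrays, beside mean and background intensities. The value table of the authors is on a log2 scale. Compared with the scanner signals (Pearson r of 0.99996 to 0.99998 over probes), it proved scaled and centred on each probe's median, in the same direction, with column medians of 0.047, -0.0059, -0.047, -0.025, 0.018 and -0.0082. It served as an alternative.

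Control spots (3671 per array) and 91 to 146 outlier spots per array were left out, log2 processed intensity was reduced by that of the array's 75th percentile (1114 to 1403), and spots of a probe were averaged. Between 39034 and 41266 of 55681 probes were well above background, and no spot was saturated. The brightest probe stood for a gene, and genes were kept if that probe was above background on each array of a group. In the 13 members with several such probes, all probes of a gene went in 1 direction, though in some by different amounts. Through RefSeq (GRCm38.p6), 27235 probes were named by accession, 3581 by symbol and 565 by synonym; 24300 kept the name in the files. Groups were compared with limma 3.58.1 (R 4.3.3; lmFit, eBayes, two-sided). On simulated data with 26638 genes, 48 of 50 genes raised by 2 log2 units and 25 of 50 raised by 1 were recovered, and 38 and 27 of 50 lowered by 2 and 1, with 9 false calls. Far fewer genes changed there than were called in the data (7534 higher and 8255 lower). The same adjusted p then asks for a smaller raw p, so the recovery is not an estimate for the data.

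Values on every array were given for members not called higher, Rsad2, the 10 largest rises, the 3 with the brightest probes, Stat2 and Irf9, and each pathway list by its 3 largest changes plus Irf7, Ifnb1, Ifng, Ifnar1 and Ifnar2. Members and lists were chosen with earlier results of these data known. All arrays lay on 1 slide, with irradiated replicates 2 and 3 in its row 2 and the other 4 arrays in row 1. Results of a few genes that this rule took are left out.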

Additional observations from a re-analysis of the deposited data

How the results depend on the processing

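Over 18 alternatives the number of members called higher was between 28 and 35, and that called lower between 1 and 3. Of 700 pairs of a member and an alternative, 655 kept direction and call, 34 lost and 10 gained the call, and 1 turned (Irf9 with spike-in scaling, -0.035). The 655 include the pairs of Oas1g and Ddx60, which the filter of the main fit kept for their irradiated signal. The median change of the members was 1.32 with normexp background correction and 1.37 with spike-in scaling. Only 1 member (Isg20) was lower with no filter on dim probes, with slide row as a block and within slide row 1; there the change of Rsad2 was -1.06 (adjusted p = 0.0681), -1.12 (adjusted p = 0.154) and -1.12 (adjusted p = 0.205). Leaving out 1 array at a time gave 30 to 33 members higher, 1 to 2 lower, a median of 1.59 to 1.75 and a change of Rsad2 of -1.50 to -0.79; with an unirradiated array left out its group has 2 arrays. Replicate numbers are shared by the groups, but same-numbered arrays deviated together by r of 0.073, 0.117 and -0.002 only, so they were not taken as paired; with a replicate block 32 members were higher and 1 lower, and the change of Rsad2 stayed at -1.06 (adjusted p = 0.0586). The cause of each lost call was not tested. The number of arrays limits the precision, and Oas1g and Ddx60, dim before irradiation, have only a lower bound of their fold, which normexp background correction undercut (log2 changes of 0.87 and 0.56).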
